A study of Drosophila melanogaster with 24 samples.

Results

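Transcript counts of 10 genes of the Notch pathway were followed in the flight muscle and the nerve cord of Drosophila melanogaster fed methylmercury (MeHg) as larvae. They were N, which encodes the Notch receptor, neur (neuralized), which encodes a ubiquitin ligase, and 8 genes of the Enhancer of split, E(spl), complex. The 10 genes were taken by their locus tags out of the 17545 genes counted in each library. This choice was made with earlier results of these data known. The complex was represented by 7 genes for basic helix-loop-helix (bHLH) proteins, E(spl)mdelta-HLH, E(spl)mgamma-HLH, E(spl)mbeta-HLH, E(spl)m3-HLH, E(spl)m5-HLH, E(spl)m7-HLH and E(spl)m8-HLH, and by 1 Bearded family gene, E(spl)malpha-BFM.

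Notch is a receptor at the cell surface that is activated by the ligands Delta and Serrate on neighbouring cells. After ligand binding it is cut by proteases, and its intracellular part enters the nucleus and joins the DNA-binding protein Su(H) and the coactivator mam on target genes. The E(spl) genes are among its best known direct targets: their bHLH proteins repress transcription together with the corepressor gro, and their Bearded family proteins bind and inhibit neur, which promotes endocytosis of the ligand in the signalling cell. In flies the pathway holds precursors of the flight muscle in an undifferentiated state, and in the nervous system it limits how many cells become neural precursors.

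The 24 libraries of total RNA fell into 8 groups, each with 3 replicates. The indirect flight muscle (IFM, dorsal longitudinal and dorsal ventral fibres together) and the ventral nerve cord (VNC, cut from the brain) were dissected from 30 h old pupae, counted from pupa formation, and from 15 day old adults. In the MeHg groups larvae had eaten food with 5 µM methylmercury chloride from the first instar on, and in the control groups food with 0.01% DMSO, the solvent. Adults of both treatments lived on food without MeHg after eclosion, so the adult values describe tissue examined after a period without exposure. The groups were MeHg pupal IFM and control pupal IFM, MeHg pupal VNC and control pupal VNC, MeHg adult IFM and control adult IFM, and MeHg adult VNC and control adult VNC. The labels name no strain or genotype; the sexes were mixed, all animals were fixed in Methacarn (methanol, chloroform and acetic acid) before dissection, and each replicate pooled 50 animals. The labels do not say whether muscle and nerve cord of a replicate came from the same animals, and the p-values measure the spread between these pooled samples.

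Library totals ran from 12.4 to 39.3 in units of 1e6 counts, with a median of 30.5, and replicate 2 of MeHg pupal VNC had the lowest. The summed level of 10 flight muscle markers was 47532 to 85556 counts per 1e6 (CPM) over the IFM libraries and 338 to 1212 CPM over the VNC libraries. That of 8 neuronal markers was 199 to 852 CPM over the IFM libraries and 7156 to 21045 CPM over the VNC libraries. Each tissue thus carried its own markers. The IFM libraries also held some neuronal transcripts, and the VNC libraries some transcripts of flight muscle markers. In dissected tissue, fewer cells of a type and less RNA per cell cannot be told apart.

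The 8 complex genes lie within 43.4 kb of chromosome arm 3R, between 25997621 and 26041008 of the dm6 (Release 6) assembly. In chromosomal order E(spl)mdelta-HLH (Dmel_CG8328) spans 25997621 to 25998633, E(spl)mgamma-HLH (Dmel_CG8333) 25999851 to 26000761, E(spl)mbeta-HLH (Dmel_CG14548) 26005046 to 26006023 and E(spl)malpha-BFM (Dmel_CG8337) 26010893 to 26011568. They are followed by E(spl)m3-HLH (Dmel_CG8346) at 26021823 to 26023127, E(spl)m5-HLH (Dmel_CG6096) at 26028854 to 26029735, E(spl)m7-HLH (Dmel_CG8361) at 26037038 to 26038019 and E(spl)m8-HLH (Dmel_CG8365) at 26040240 to 26041008. All 8 are annotated as a single exon with no overlapping gene; E(spl)mbeta-HLH and E(spl)m5-HLH are on the minus strand and the other 6 on the plus strand. N (Dmel_CG3936) spans 3134870 to 3172221 on the plus strand of chromosome X, with 10150 exonic bases in 9 blocks. The gene neur (Dmel_CG11988) spans 9020348 to 9039471 on the minus strand of 3R, with 4309 exonic bases in 4 blocks. An antisense RNA, asRNA:CR31429, shares 1673 exonic bases with neur. It had 0 to 10 counts per library against 302 to 3204 for neur, and since the use of strand in counting is not given in the sources used here, reads of this overlap cannot be assigned with certainty.

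**Figure D1:**
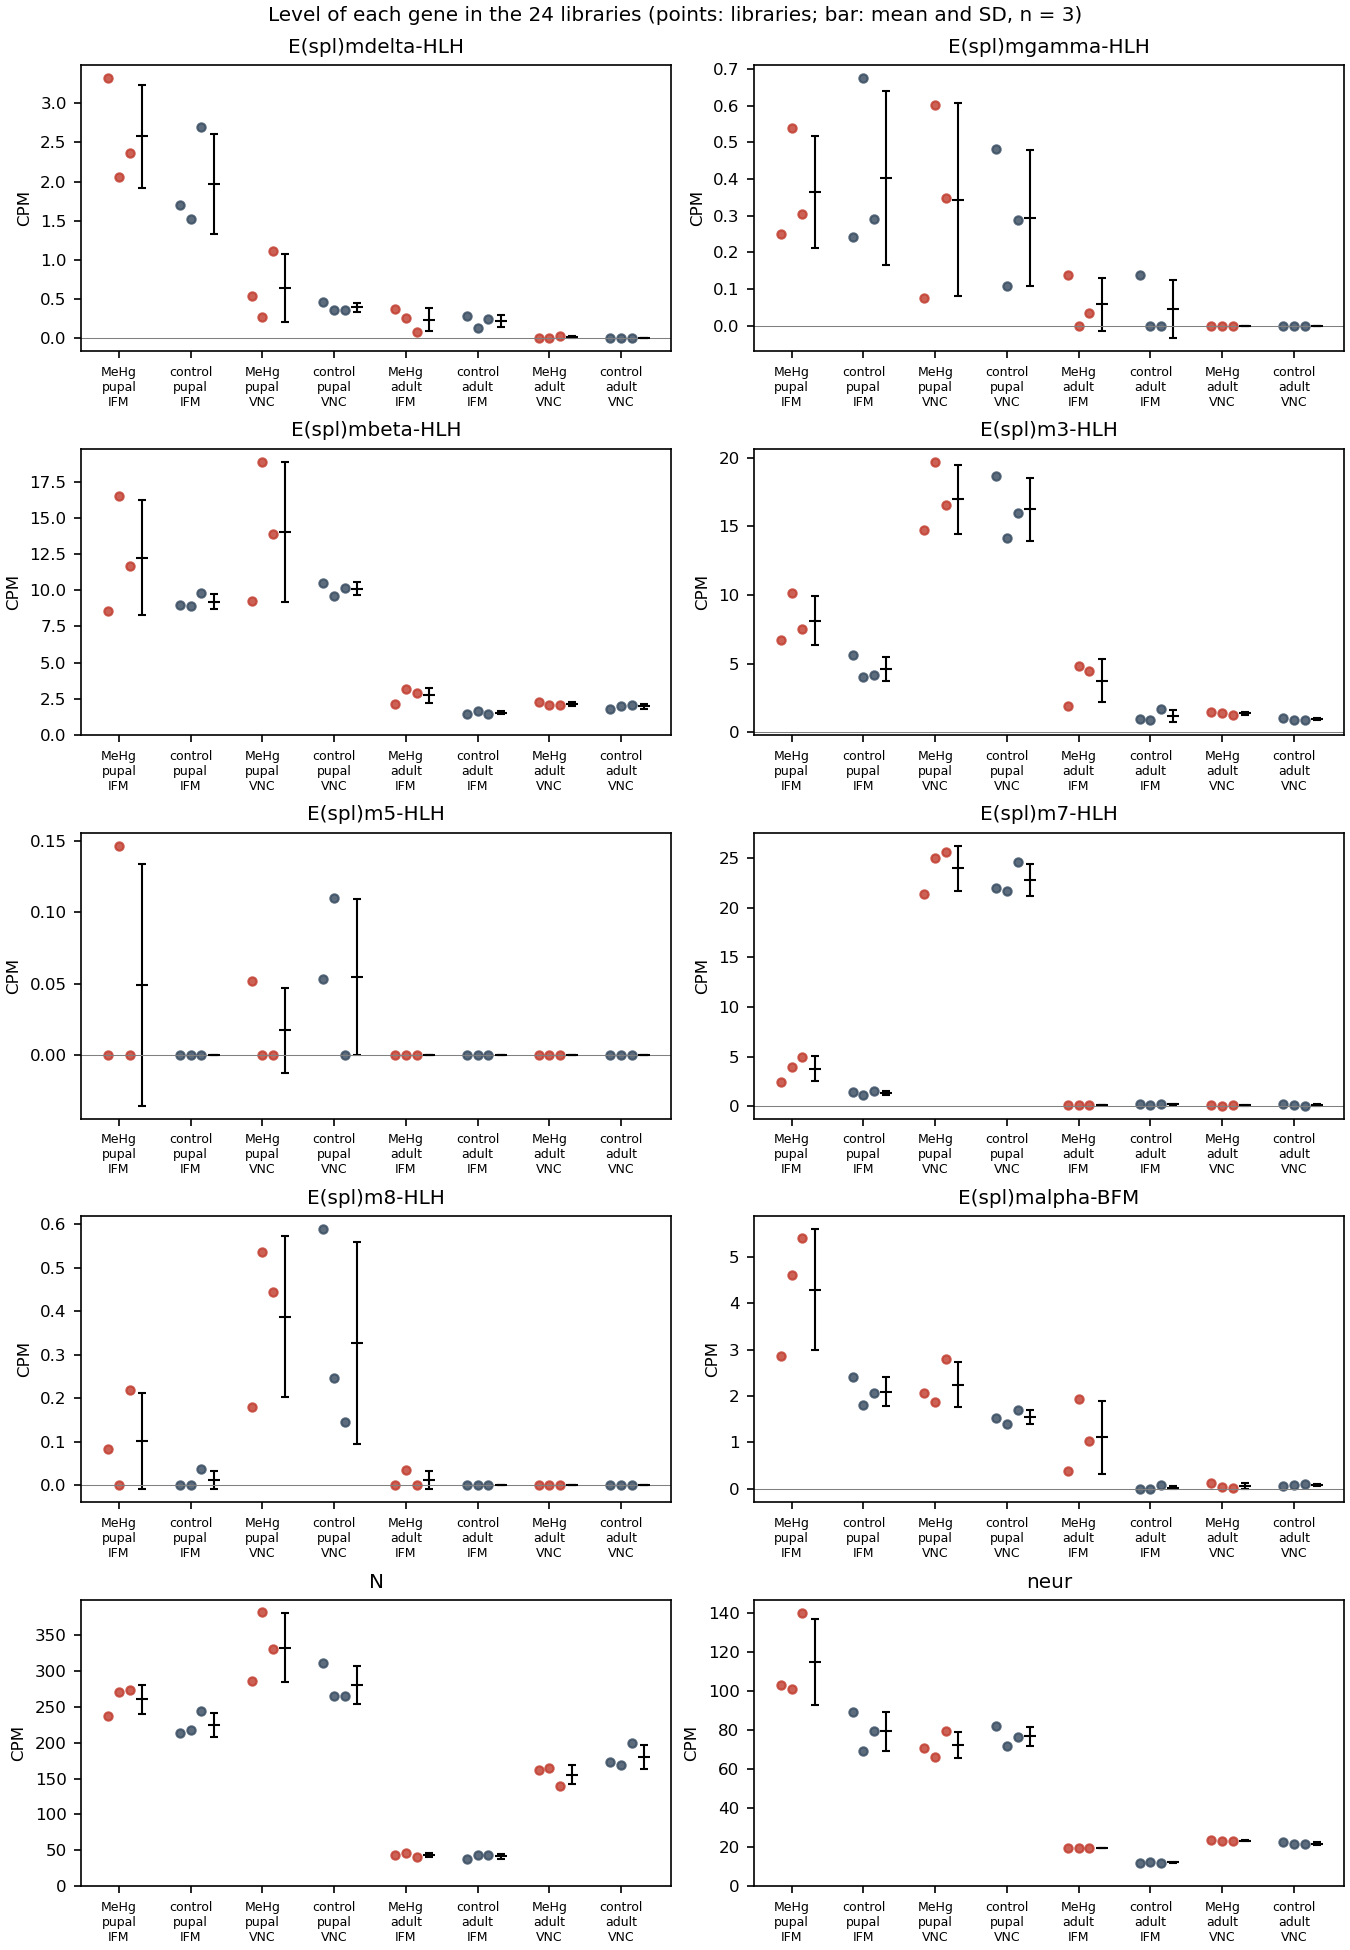
Level of each of the 10 genes in counts per 1e6 (CPM, vertical axis of each panel, own scale) in the 24 libraries, by group. Each point is a library, red for MeHg and blue for control, and the black line beside the points marks the mean and SD over 3 libraries; the MeHg adult IFM libraries have 0.371 to 1.93 CPM of E(spl)malpha-BFM, and the 3 control adult IFM libraries no more than 0.0703 CPM.

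Among genes tested for an effect of MeHg with edgeR's quasi-likelihood test and Benjamini-Hochberg adjustment over all genes (called at an adjusted p under 0.05), members rose in IFM at both stages. In pupal IFM, 7 of the 10 members passed the filter on low counts, and neur and E(spl)m7-HLH rose; 3.01% of the 11347 genes tested were called there, 0.917% of them as higher. In adult IFM the same 7 were tested, and neur, E(spl)m3-HLH and E(spl)malpha-BFM rose, with 7.6% of all genes called and 3.67% called higher. No member fell in IFM. Since the members were chosen with earlier results of these data known, member counts beside the share of all genes, here and below, are no test of the group. The 3 MeHg libraries were all above the 3 controls for 4 of the 7 in pupal IFM (10.4% of all genes) and for 4 of the 7 in adult IFM (10.7% of all genes). In VNC, 9 of the 10 were tested and edgeR called 0 at either stage; the background was 0.531% of 11870 genes in pupal VNC and 0.0674% in adult VNC. Ranges were apart upward for 1 member in pupal VNC (4.52% of all genes) and 2 in adult VNC (13.5% of all genes), and downward for 1 in adult VNC (12.8% of all genes). DESeq2 also called 0 members in both VNC comparisons, and 1 member had an unadjusted p under 0.05 in each, E(spl)mbeta-HLH in pupae and E(spl)m3-HLH in adults. The share of all genes under an unadjusted p of 0.05 was not counted, here and below, so such counts are not read as results. E(spl)m5-HLH was tested in no comparison, and E(spl)mgamma-HLH and E(spl)m8-HLH were not tested within IFM.

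**Figure D2:**
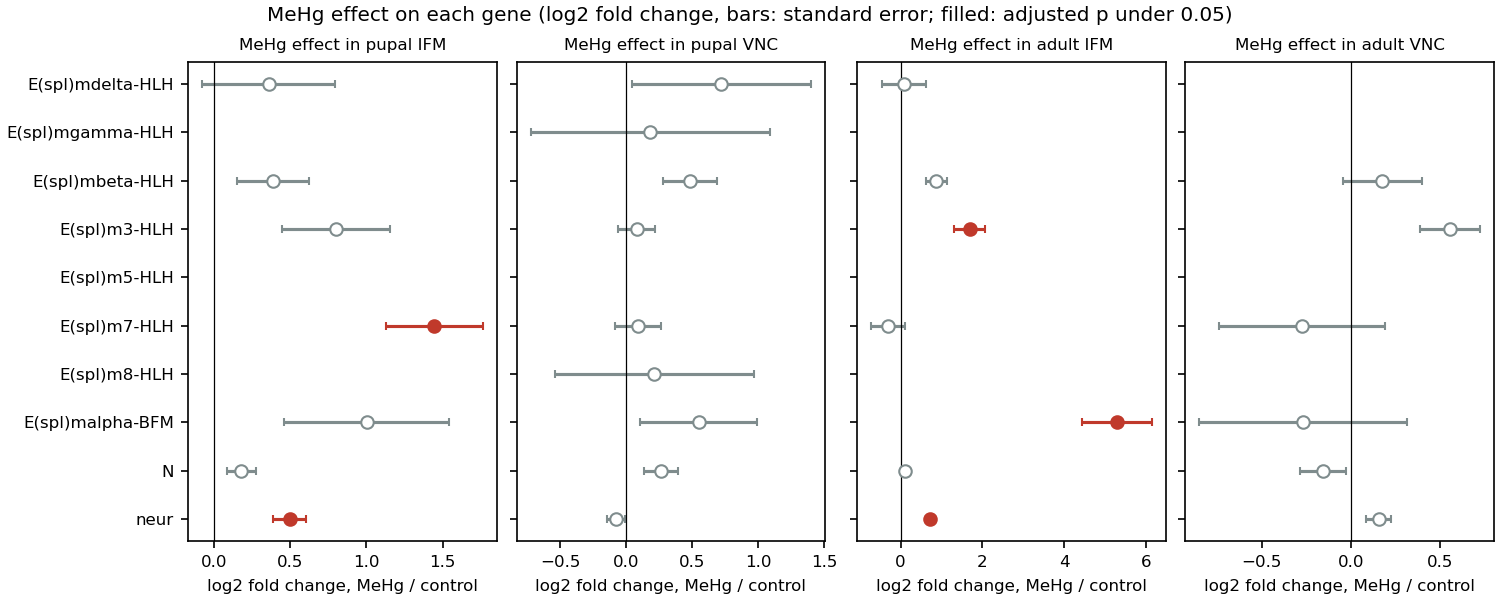
MeHg effect on each member (log2 fold change of MeHg over control, horizontal axis) with its standard error, in 1 panel per tissue and stage. Filled points passed an adjusted p of 0.05, which were neur and E(spl)m7-HLH in pupal IFM and neur, E(spl)m3-HLH and E(spl)malpha-BFM in adult IFM; members that were not tested, and 3 bHLH genes at or near 0 counts in adult VNC, are left out.

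N, the receptor gene, was the member with the most counts in each group. It had 237, 271 and 273 CPM in MeHg pupal IFM against 213, 217 and 244 CPM in control pupal IFM. The ranges overlapped by 1 library, and the log2 fold change was 0.18 ± 0.09 (standard error, SE, here and below; adjusted p = 0.308, edgeR). In VNC, N had 286, 382 and 330 CPM in MeHg pupae against 311, 265 and 265 CPM in control pupae (log2 fold change 0.26 ± 0.13, adjusted p = 0.599, edgeR). The highest value belonged to the library with the lowest total, and the groups overlapped. Adult IFM held 43.7, 46.0 and 41.3 CPM of N after MeHg and 37.9, 43.4 and 43.6 CPM in controls, overlapping ranges with a log2 fold change of 0.12 ± 0.09 (adjusted p = 0.5, edgeR). The MeHg adult VNC libraries had 162, 164 and 140 CPM against 172, 169 and 199 CPM in the control adult VNC libraries. Each of the 3 MeHg values lay below each control value, and the log2 fold change of -0.16 ± 0.13 did not pass the test (adjusted p = 0.608, edgeR). Ordered by their means, the 4 pupal groups came first, with ranges that overlapped from each to the next, then control adult VNC, MeHg adult VNC and the overlapping pair of adult IFM groups.

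Between stages, N fell in both tissues of control animals. Its level was 41.6 ± 3.26 CPM in control adult IFM against 225 ± 17.1 CPM in control pupal IFM (SD, n = 3 each), a log2 fold change of -2.41 ± 0.10 (adjusted p = 2.05e-09, edgeR). In VNC it was 180.0 ± 16.5 CPM in control adults and 280.4 ± 26.3 CPM in control pupae, a log2 fold change of -0.68 ± 0.13 (adjusted p = 0.000709, edgeR). Between tissues, control adult IFM had less N than control adult VNC, with a log2 fold change of -2.11 ± 0.12 (adjusted p = 1.38e-12, edgeR). In control pupae the difference of IFM over VNC was -0.32 ± 0.11 on the log2 scale (adjusted p = 0.0174, edgeR). Both differences depended on the processing: long genes, of which N is one, were lower in IFM than in VNC over all genes (Spearman's rho of log2 fold change with exonic length -0.31 over 8336 genes), and with this trend removed the pupal difference was 0.81 with an adjusted p of 2.51e-05. The adult difference kept its sign and its call without the trend, at -0.62 (adjusted p = 0.000366). The pupal difference also failed the test under DESeq2 (-0.14, adjusted p = 0.246). It failed with scaling by relative log expression (adjusted p = 0.255, edgeR) and in the fit of the 6 libraries alone (adjusted p = 0.352, edgeR). Leaving out any of 5 of the 6 control pupal libraries lost the call too, the exception being control pupal IFM replicate 3.

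The ligase gene neur rose in IFM at both stages. MeHg pupal IFM had 103, 101 and 140.0 CPM against 89.0, 69.1 and 79.3 CPM in control pupal IFM. Replicate 3 of the MeHg group was the highest, the ranges did not overlap, and the log2 fold change was 0.50 ± 0.11 (adjusted p = 0.0341, edgeR). The call was lost without control replicate 2 or 3 or without MeHg replicate 2 or 3 (adjusted p 0.061 to 0.149), and longer genes had higher fold changes in this comparison (rho 0.41 over 7850 genes); with that trend removed the value was 0.38 (adjusted p = 0.0976). The sample titles carry a tag that sets pupal replicate 1 apart from replicates 2 and 3. Within the first tag neur had 103 CPM after MeHg and 89.0 CPM in the control, and within the second 101 and 140.0 CPM after MeHg and 69.1 and 79.3 CPM in controls, so the direction was the same in both; with the tag as a term the adjusted p was 0.1.

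In adult IFM, neur had 19.5, 19.5 and 19.7 CPM after MeHg against 12.0, 12.6 and 12.0 CPM in controls. The libraries of each group lay within 1 CPM of each other and the groups were far apart, with a log2 fold change of 0.73 ± 0.11 (adjusted p = 0.00629, edgeR), called whichever of the 6 libraries was left out. With the replicate number as a block the value was 0.72 and the adjusted p 0.0752, and with the title tag as a term 0.70 and 0.06. MeHg adult replicate 4 has a tag of its own with no control, while MeHg replicates 1 and 3 share the tag of the 3 controls.

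In VNC, neur had 70.9, 66.1 and 79.3 CPM in MeHg pupae against 81.7, 71.9 and 76.5 CPM in control pupae, with overlapping ranges and a log2 fold change of -0.08 ± 0.07 (adjusted p = 0.794, edgeR). MeHg adult VNC had 23.8, 23.0 and 23.2 CPM against 22.5, 21.3 and 21.4 CPM in control adult VNC. Those ranges did not overlap, but the log2 fold change of 0.16 ± 0.07 did not pass the test (adjusted p = 0.371, edgeR). By group mean MeHg pupal IFM was highest and apart from the next, the other 3 pupal groups overlapped in sequence, and the 4 adult groups followed without overlap in the order MeHg VNC, control VNC, MeHg IFM and control IFM.

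The adult control level of neur was lower than the pupal control level in both tissues, by a log2 fold change of -2.67 ± 0.12 in IFM (adjusted p = 3.31e-09, edgeR) and -1.86 ± 0.07 in VNC (adjusted p = 1.36e-09, edgeR). Control pupal IFM and control pupal VNC had means of 79.2 ± 9.95 and 76.7 ± 4.93 CPM (SD, n = 3 each), a log2 fold change of 0.05 ± 0.11 (adjusted p = 0.745, edgeR). Scaling by relative log expression in place of TMM moved the median of all genes in this comparison by 0.15, and neur was then called higher in pupal IFM (0.22, adjusted p = 0.0411). It was also called higher by DESeq2 (0.22, adjusted p = 0.0341), in the fit of the 6 libraries alone (0.26, adjusted p = 0.0221) and with the length trend between tissues removed (0.75, adjusted p = 9.13e-08). In control adults neur was lower in IFM than in VNC (-0.83 ± 0.11, adjusted p = 1.46e-06, edgeR). With the length trend removed this became -0.07 (adjusted p = 0.444).

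Of the bHLH genes, E(spl)mbeta-HLH and E(spl)m3-HLH had the most counts in IFM, and with E(spl)m7-HLH in pupal VNC, while E(spl)mgamma-HLH, E(spl)m8-HLH and E(spl)m5-HLH had few in all groups. E(spl)mdelta-HLH had more counts than E(spl)m7-HLH in control pupal IFM, 129 against 85, and fewer in pupal VNC. All 7 encode related repressors, and several of them can replace each other in flies.

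E(spl)m7-HLH rose in pupal IFM. It had 2.45, 3.92 and 4.94 CPM in MeHg pupal IFM against 1.39, 1.12 and 1.53 CPM in control pupal IFM. Each MeHg library was above each control, and the log2 fold change was 1.45 ± 0.32 (adjusted p = 0.0354, edgeR). From the summed counts, 252 in the MeHg group and 85 in the control group, the ratio was 2.72 with an exact 95% interval of 2.12 to 3.52 that covers counting error only. The call did not hold when any of the 3 control replicates, or MeHg replicate 2 or 3, was left out (adjusted p 0.0718 to 0.203). Within the tag of pupal replicate 1 the values were 2.45 CPM after MeHg and 1.39 CPM in the control, and within that of replicates 2 and 3 they were 3.92 and 4.94 CPM after MeHg and 1.12 and 1.53 CPM in controls; with the tag as a term the adjusted p was 0.0888.

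In the pupal nerve cord E(spl)m7-HLH stood far higher than in the muscle, at 21.4, 25.0 and 25.6 CPM after MeHg and 22.0, 21.7 and 24.6 CPM in controls. These ranges overlapped and the log2 fold change was 0.09 ± 0.17 (adjusted p = 0.912, edgeR). Control pupal IFM was below control pupal VNC by a log2 fold change of -4.07 ± 0.29 (adjusted p = 8.83e-11, edgeR). In adults the gene was near the limit of detection in all 4 groups: 0.139, 0.143 and 0.147 CPM in MeHg IFM against 0.242, 0.125 and 0.176 CPM in control IFM, and 0.133, 0.0538 and 0.100 CPM in MeHg VNC against 0.214, 0.109 and 0.0483 CPM in control VNC. Neither adult pair of groups was apart, with adjusted p of 0.788 in IFM and 0.852 in VNC (edgeR). In each tissue the gene passed the filter on low counts only through pupal libraries, which limits the stage tests that follow. The adult control level was below the pupal control level by a log2 fold change of -2.82 ± 0.37 in IFM (adjusted p = 2.51e-05, edgeR) and of -7.55 ± 0.27 in VNC (adjusted p = 7.39e-10, edgeR), where 14 counts over the 3 adult libraries stood against 2293 over the 3 pupal ones; without control adult VNC replicate 1, which held 8 of the 14, it was -8.21. Its level by group thus placed the overlapping pair of pupal VNC groups first, then MeHg pupal IFM, then control pupal IFM, each apart from the next, and the 4 adult groups together at the bottom.

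E(spl)m3-HLH rose in adult IFM. The MeHg adult IFM libraries had 1.95, 4.85 and 4.47 CPM and the control adult IFM libraries 1.00, 0.876 and 1.72 CPM. MeHg replicate 1 was the lowest of its group and stayed above the highest control; the log2 fold change was 1.69 ± 0.38 (adjusted p = 0.0238, edgeR). Summed counts of 300 after MeHg and 99 in controls gave a ratio of 3.21 (exact 95% interval 2.55 to 4.07, counting error only). Without control replicate 1 or 2, or without MeHg replicate 3 or 4, it was not called (adjusted p 0.0523 to 0.0881), nor with the replicate block (1.27, adjusted p = 0.12) or the title tag as a term (1.53, adjusted p = 0.134).

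In pupal IFM, E(spl)m3-HLH had 6.73, 10.1 and 7.51 CPM after MeHg against 5.63, 3.99 and 4.19 CPM in controls. The ranges were apart, but the log2 fold change of 0.80 ± 0.36 did not pass the test (adjusted p = 0.241, edgeR). Pupal VNC had 14.7, 19.7 and 16.5 CPM after MeHg and 18.7, 14.1 and 15.9 CPM in controls, which overlapped (log2 fold change 0.08, adjusted p = 0.998, edgeR). Adult VNC had 1.49, 1.37 and 1.25 CPM after MeHg against 1.07, 0.924 and 0.918 CPM in controls; the ranges were apart and the log2 fold change of 0.55 ± 0.17 was not called (adjusted p = 0.277, edgeR). Across stages the control level was lower in adults, by -1.90 ± 0.38 in IFM (adjusted p = 0.000729, edgeR) and -4.10 ± 0.17 in VNC (adjusted p = 1.78e-09, edgeR) on the log2 scale. Control pupal IFM was below control pupal VNC (-1.82 ± 0.28, adjusted p = 7.85e-06, edgeR), while the adult controls of both tissues did not differ beyond the test (0.31, adjusted p = 0.35, edgeR).

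E(spl)mbeta-HLH did not pass the test for MeHg in any comparison. In adult IFM it had 2.13, 3.18 and 2.89 CPM after MeHg against 1.49, 1.67 and 1.48 CPM in controls. The ranges were apart and the log2 fold change was 0.87 ± 0.25 with an adjusted p of 0.0616 (edgeR); it was called by DESeq2 (0.90, adjusted p = 0.0263), with the length trend removed (0.98, adjusted p = 0.0369) and in the fit of all 24 libraries (0.83, adjusted p = 0.0301). The pupal IFM values were 8.60, 16.5 and 11.7 CPM after MeHg and 8.96, 8.88 and 9.83 CPM in controls (log2 fold change 0.39 ± 0.24, adjusted p = 0.404, edgeR). MeHg pupal VNC had 9.28, 18.9 and 13.9 CPM against 10.5, 9.62 and 10.2 CPM in control pupal VNC (0.48 ± 0.21, adjusted p = 0.53, edgeR). In both pupal tissues MeHg replicate 1 lay below the 3 controls and replicate 2 was highest. Adult VNC had 2.28, 2.05 and 2.11 CPM after MeHg against 1.81, 2.01 and 2.10 CPM in controls (0.17 ± 0.22, adjusted p = 0.76, edgeR). This gene was lower in adult than in pupal controls by -2.55 ± 0.26 in IFM (adjusted p = 3.01e-06, edgeR) and -2.39 ± 0.22 in VNC (adjusted p = 1.71e-06, edgeR) on the log2 scale. Its control levels in IFM and VNC did not differ beyond the test in pupae (-0.13, adjusted p = 0.639, edgeR) or adults (-0.36, adjusted p = 0.181, edgeR); with the length trend removed it was called lower in adult IFM (-0.76, adjusted p = 0.00469).

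E(spl)mdelta-HLH was higher in muscle than in nerve cord at both stages. It had 3.32, 2.06 and 2.36 CPM in MeHg pupal IFM and 1.69, 1.52 and 2.69 CPM in control pupal IFM, against 0.541, 0.268 and 1.11 CPM in MeHg pupal VNC and 0.454, 0.357 and 0.362 CPM in control pupal VNC. The treatments overlapped within each tissue, with log2 fold changes of 0.36 ± 0.44 in IFM (adjusted p = 0.717, edgeR) and 0.72 in VNC (adjusted p = 0.8, edgeR). Control pupal IFM exceeded control pupal VNC by a log2 fold change of 2.32 ± 0.61 (adjusted p = 0.00284, edgeR). In adults, MeHg IFM had 0.371, 0.250 and 0.0733 CPM against 0.276, 0.125 and 0.246 CPM in control IFM (0.09 ± 0.54, adjusted p = 0.948, edgeR), and only 1 of the 6 adult VNC libraries, a MeHg one, had a count. Control adult IFM held 18 counts and control adult VNC 0. The fitted log2 fold change of IFM over VNC was 5.70 ± 0.99 (adjusted p = 4.61e-05, edgeR), whose size is uncertain with 0 counts in VNC. With a floor of 3 counts over the 3 VNC libraries, the level was 8.53-fold higher in IFM, a ratio that was not tested. Such a ratio leaves out the counting error of the other group. Adult control IFM was below pupal control IFM by -3.11 ± 0.50 on the log2 scale (adjusted p = 0.000149, edgeR). With the same floor, adult control VNC was 15.2-fold lower than pupal control VNC. In each tissue the gene passed the filter on low counts only through pupal libraries, which limits these stage comparisons.

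The remaining bHLH genes had few counts. E(spl)mgamma-HLH had 0.249, 0.539 and 0.306 CPM in MeHg pupal IFM against 0.242, 0.674 and 0.291 CPM in control pupal IFM, and 0.0773, 0.603 and 0.350 CPM in MeHg pupal VNC against 0.481, 0.110 and 0.290 CPM in control pupal VNC. These ranges overlapped in both tissues; the VNC pair had an adjusted p of 0.967 (edgeR) and the IFM pair was not tested. It had 4 counts in MeHg adult IFM, 4 in control adult IFM and 0 in all 6 adult VNC libraries. With a floor of 3 counts in place of 0, control adult VNC was 11.4-fold below control pupal VNC. E(spl)m8-HLH was found mainly in the pupal nerve cord, with 7 counts over MeHg pupal IFM and 1 over control pupal IFM, against 29 over MeHg pupal VNC and 35 over control pupal VNC. The control IFM to VNC ratio in pupae was 0.0469 (exact 95% interval 0.0012 to 0.279, counting error only; adjusted p = 0.0139, edgeR), and this call was lost without control pupal VNC replicate 1 (adjusted p = 0.0646), with the replicate block (adjusted p = 0.0591) and with DESeq2 (adjusted p = 0.0597). The fitted log2 value, -4.09, was -6.30 without control pupal IFM replicate 3, which held the 1 count. The gene passed the filter on low counts only through pupal VNC libraries, where it was high, so this call supports nothing by itself. In adult VNC it had 0 counts, and with the floor of 3 counts control adults were 13.3-fold below control pupae. E(spl)m5-HLH had 3 counts over MeHg pupal IFM and 0 over control pupal IFM, 2 over MeHg pupal VNC and 6 over control pupal VNC, and 0 in all 12 adult libraries.

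Expressed per kb of exon, so that genes can be added, the 7 bHLH genes summed to 20.1, 31.4 and 25.7 CPM per kb in MeHg pupal IFM against 16.8, 15.5 and 17.8 CPM per kb in control pupal IFM. Adult IFM summed to 4.33, 7.41 and 6.65 CPM per kb after MeHg against 2.96, 2.63 and 3.25 CPM per kb in controls. Both pairs of ranges were apart. In pupal VNC the sums were 43.5, 61.5 and 55.0 CPM per kb after MeHg and 49.2, 43.7 and 48.6 CPM per kb in controls, which overlapped, and in adult VNC 3.61, 3.20 and 3.24 CPM per kb after MeHg against 2.89, 2.88 and 2.90 CPM per kb in controls, which did not. No test was made of these sums, because their members had been chosen with results known. As a scale, N had 25.7 CPM per kb in MeHg pupal IFM and 22.1 CPM per kb in control pupal IFM, and neur 26.6 and 18.4 CPM per kb in those groups.

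The make-up of the sum differed by tissue. E(spl)m7-HLH gave 8.18% of it in control pupal IFM and 49.2% in control pupal VNC, where it was the leading member. E(spl)mbeta-HLH gave 56.4% in control pupal IFM and 21.9% in control pupal VNC, and E(spl)mdelta-HLH gave 11.5% in control pupal IFM. After MeHg, E(spl)m7-HLH gave 14.9% of the sum in pupal IFM, against the 8.18% of its controls. In adult IFM, E(spl)m3-HLH gave 45.4% after MeHg and 30.7% in controls. Adult VNC was mostly E(spl)mbeta-HLH in both treatments, with 65.5% after MeHg and 69.9% in controls. These are means over 3 libraries, and they describe transcripts and not cells.

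**Figure D3:**
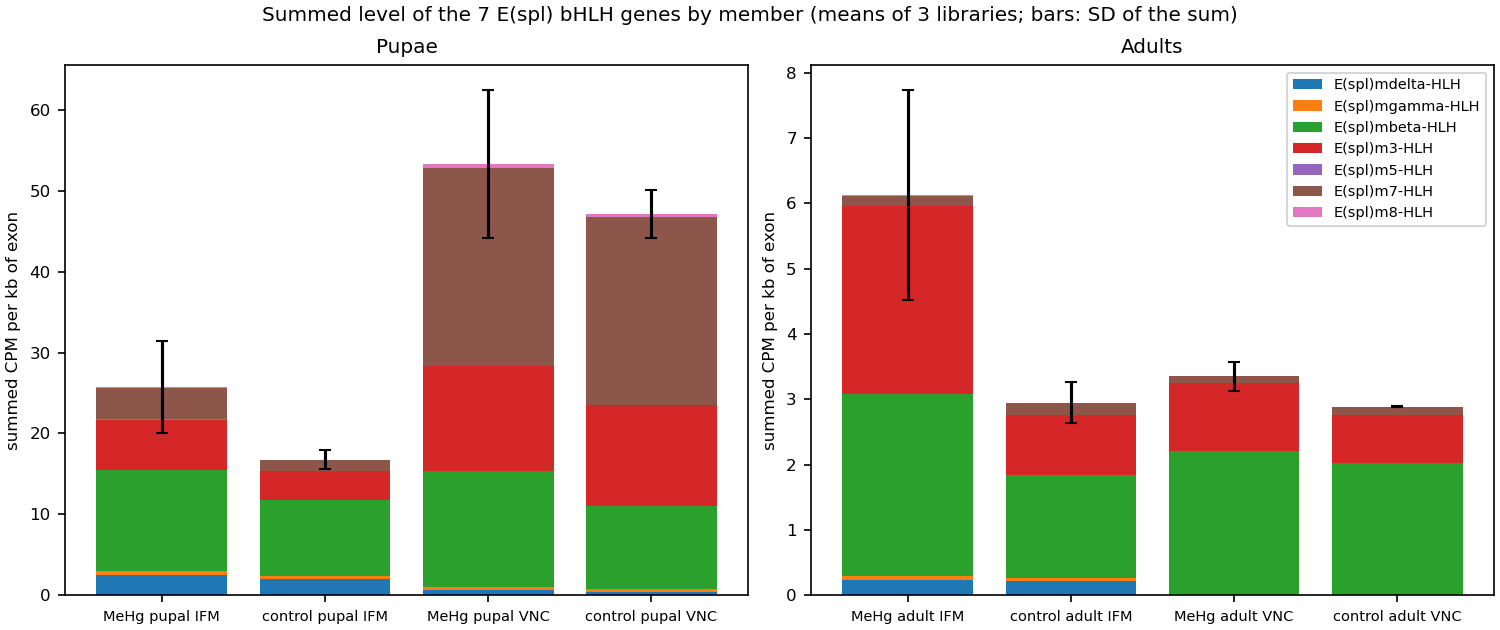
Summed level of the 7 E(spl) bHLH genes in CPM per kb of exon (vertical axis, pupae and adults on separate scales) with the contribution of each gene stacked. The whisker is the SD of the sum over 3 libraries; E(spl)m7-HLH makes up 8.18% of the bar in control pupal IFM and 49.2% in control pupal VNC.

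E(spl)malpha-BFM, the Bearded family gene, showed the largest fitted MeHg effect among the members tested, in adult IFM. It had 8, 54 and 28 counts in the MeHg adult IFM libraries (0.371, 1.93 and 1.03 CPM) against 0, 0 and 2 counts in the control adult IFM libraries (at most 0.0703 CPM). Each MeHg library was above each control, and the spread within the MeHg group was wide, with replicate 1 lowest. The log2 fold change was 5.29 ± 0.85 (adjusted p = 0.00788, edgeR); as the controls held 2 counts in all, the ratio of summed counts, 90 against 2, was 47.6 with an exact 95% interval of 12.8 to 399.2 that covers counting error only. It was called without any 1 of the 6 libraries, with values of 4.64 to 7.81, the highest of them without control replicate 3, which held the 2 control counts, and the lowest without MeHg replicate 3, and lost its call when the fit used the 6 libraries alone (5.31, adjusted p = 0.0561). MeHg replicates 1 and 3, with the title tag of the controls, had 0.371 and 1.93 CPM.

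In pupal IFM, E(spl)malpha-BFM had 2.87, 4.604 and 5.42 CPM after MeHg against 2.42, 1.80 and 2.08 CPM in controls, ranges that were apart, with a log2 fold change of 1.00 ± 0.54 that was not called (adjusted p = 0.336, edgeR). Pupal VNC had 2.06, 1.88 and 2.80 CPM after MeHg against 1.52, 1.40 and 1.70 CPM in controls, also apart (0.55 ± 0.44, adjusted p = 0.765, edgeR). Adult VNC had 5, 1 and 1 counts after MeHg and 2, 3 and 4 counts in controls, which overlapped (-0.27 ± 0.58, adjusted p = 0.88, edgeR). The adult control level was below the pupal control level in both tissues. No control adult library helped the gene pass the filter on low counts, which limits these tests. In IFM 2 counts in adults stood against 129 in pupae, with both adult counts in replicate 3. The ratio was 0.0118 (exact 95% interval 0.0014 to 0.0434, counting error only). The fitted log2 fold change was -6.12 ± 0.84 in IFM (adjusted p = 3.97e-05, edgeR) and -4.29 ± 0.54 in VNC (adjusted p = 2.26e-05, edgeR). The MeHg adult IFM mean, 1.11 ± 0.782 CPM (SD, n = 3), was the highest of the 4 adult groups and below those of all 4 pupal groups; its range overlapped those of control pupal IFM, MeHg pupal VNC and control pupal VNC. Control IFM and control VNC did not differ beyond the test in pupae (0.44 ± 0.55, adjusted p = 0.517, edgeR) or in adults (-1.51, adjusted p = 0.133, edgeR). The pupal difference was called in the fit of the 6 libraries alone (0.66, adjusted p = 0.0408), and the adult one without control adult IFM replicate 3 (-4.27, adjusted p = 0.015), which leaves IFM at 0 counts.

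The difference of the MeHg effect between tissues and stages was tested directly, in IFM minus VNC and in adult minus pupal terms. In adults 2 of 9 members had a MeHg effect that was higher in IFM than in VNC, against 3.38% of all 12631 genes called in either direction and 1.33% called higher. They were E(spl)malpha-BFM, with a difference of 5.61 ± 1.12 on the log2 scale (adjusted p = 0.0113, edgeR), and neur, with 0.58 ± 0.16 (adjusted p = 0.0488, edgeR). The E(spl)malpha-BFM value was not called with the replicate block (5.59, adjusted p = 0.0583), and it was 8.36 without control adult IFM replicate 3, which held the 2 control counts, and 6.72 without MeHg adult VNC replicate 1. The neur value kept its size but not its call when any 1 of the 6 adult IFM libraries was left out (0.56 to 0.60, adjusted p 0.0549 to 0.139). The difference was 1.15 ± 0.41 for E(spl)m3-HLH (adjusted p = 0.129, edgeR), which did not pass, and was called without MeHg adult IFM replicate 1 (1.45, adjusted p = 0.0298). In pupae edgeR called 0 of 9 members, against 0.245% of all genes, and 2 members had an unadjusted p under 0.05. DESeq2 called 2 members, and its own share over all genes is not given here. The pupal differences were 0.62 ± 0.16 for neur (adjusted p = 0.108, edgeR) and 1.40 ± 0.36 for E(spl)m7-HLH (adjusted p = 0.14, edgeR).

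Between stages, edgeR called 0 of 7 members in IFM, against 2.69% of all genes, and 2 members had an unadjusted p under 0.05. DESeq2 called 1 member, and its own share over all genes is not given here. E(spl)malpha-BFM had the largest value, 4.28 ± 1.03 (adjusted p = 0.0544, edgeR), and E(spl)m7-HLH had -1.74 ± 0.53 (adjusted p = 0.104, edgeR). The E(spl)malpha-BFM value was called without MeHg adult IFM replicate 1 (4.68, adjusted p = 0.0338), by DESeq2 (4.56, adjusted p = 0.00828) and in the fit of all 24 libraries (4.26, adjusted p = 0.0149), and it was 6.81 without control adult IFM replicate 3 (adjusted p = 0.054). That of E(spl)m7-HLH was called in the fit of all 24 libraries (-1.82, adjusted p = 0.0496). For neur the difference of the adult and pupal effects was 0.23 (adjusted p = 0.452, edgeR). In VNC edgeR called 0 of 9, against 0.00842% of all genes, with 2 at an unadjusted p under 0.05. DESeq2 called 0 there. That E(spl)m7-HLH was called in pupal IFM alone and E(spl)m3-HLH in adult IFM alone is therefore not a shown difference between the stages.

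Between adult and pupal controls, all 7 members tested in IFM and all 9 tested in VNC were lower in adults. The background was high, with 74.4% of all genes called in IFM (36.7% lower) and 64.3% in VNC (32.6% lower). This count supports nothing by itself. E(spl)mdelta-HLH, E(spl)mgamma-HLH and E(spl)m8-HLH, at 0 counts in control adult VNC, passed the filter there only through their pupal libraries and had to differ. E(spl)m7-HLH in both tissues and E(spl)mdelta-HLH in IFM also passed only through pupal libraries. E(spl)malpha-BFM passed in both tissues through no control adult library. The stage p-values of these genes carry the same limit. Between tissues, 5 of 9 members differed in control pupae, against 60% of all genes called (25.9% higher and 34.1% lower). E(spl)mdelta-HLH was higher in IFM, and N, E(spl)m3-HLH, E(spl)m7-HLH and E(spl)m8-HLH were lower. Of these, E(spl)m8-HLH passed the filter only through pupal VNC libraries, where it was high, so its call supports nothing by itself. In control adults 3 of 9 differed, E(spl)mdelta-HLH being higher in IFM and N and neur lower, against 73% of all genes called (35% higher and 38% lower). Leaving out 1 control library changed these counts to between 3 and 5 in both stages.

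**Figure D4:**
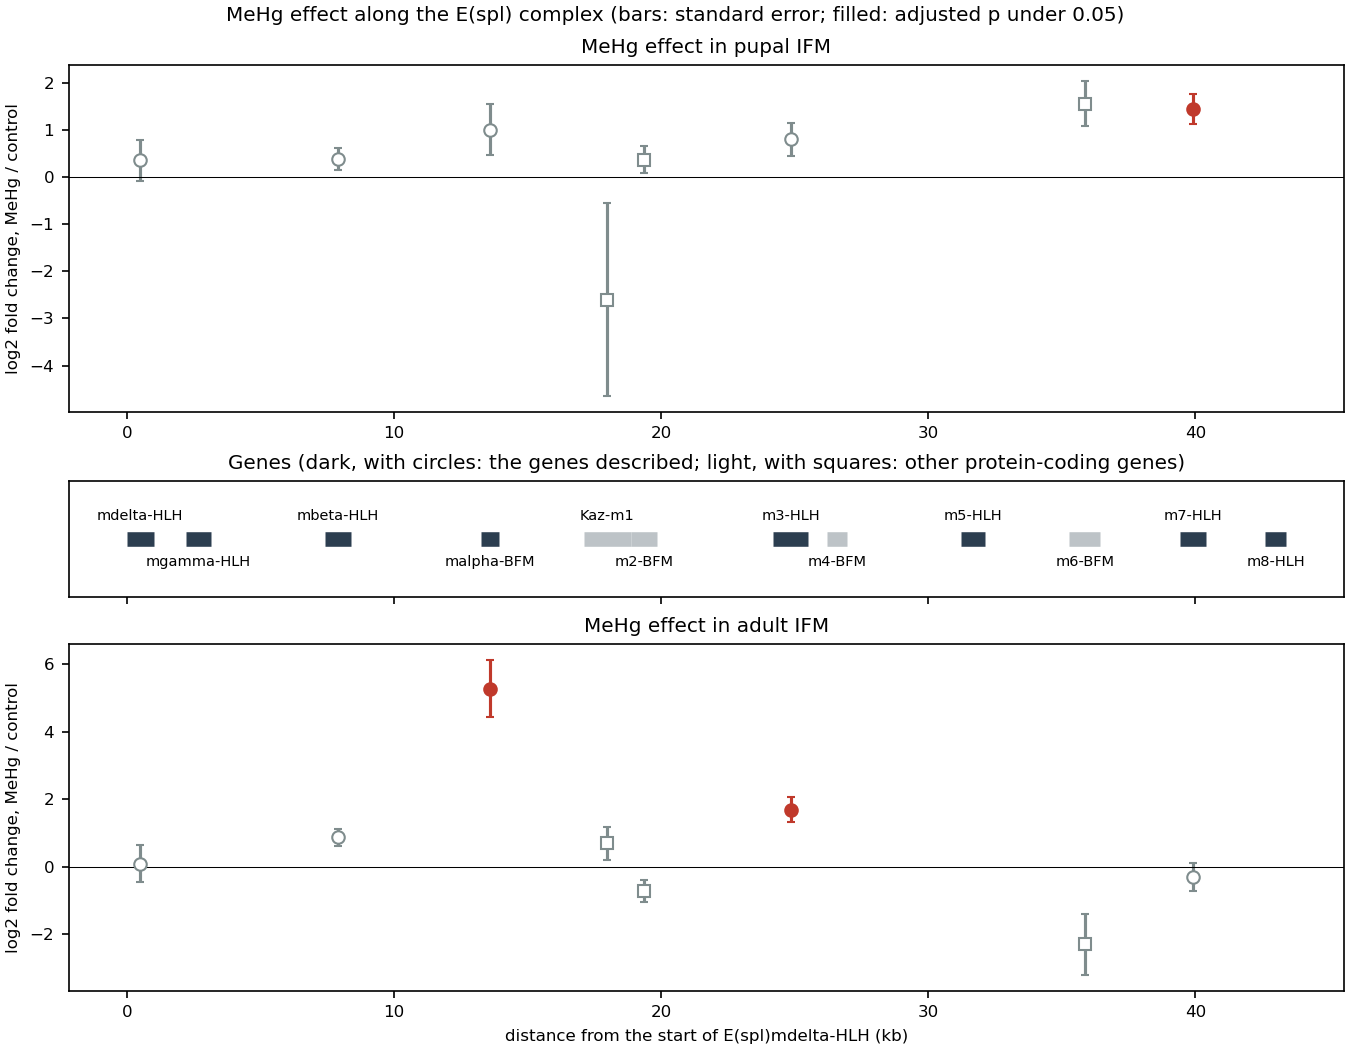
MeHg effect (log2 fold change with standard error) on the genes of the E(spl) complex in pupal IFM (top) and adult IFM (bottom) along the complex, with the protein-coding genes drawn between them. The horizontal axis is the distance in kb from the start of E(spl)mdelta-HLH; the highest point is E(spl)malpha-BFM in adult IFM, 5.29, and E(spl)m7-HLH, 1.45, is called in pupal IFM.

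Within the complex, called and uncalled genes were interleaved. In adult IFM the 2 called members, E(spl)malpha-BFM and E(spl)m3-HLH, are separated by Kaz-m1, a gene for a Kazal-type protease inhibitor, and by another Bearded family gene, E(spl)m2-BFM. E(spl)m2-BFM had 0.463, 0.286 and 0.476 CPM in MeHg adult IFM against 0.587, 0.542 and 0.949 CPM in control adult IFM and was not called. A further gene of that family in the complex, E(spl)m6-BFM, known from muscle precursors, had 2.53, 2.74 and 4.50 CPM in MeHg pupal IFM against 1.82, 0.618 and 0.837 CPM in control pupal IFM. Its ranges were apart and it was not called. In adult IFM it had 1 count after MeHg and 7 counts in controls. Outside the complex, the Bearded family genes Tom and Ocho had 0 counts in all 6 adult IFM libraries, whereas E(spl)malpha-BFM had 90 counts after MeHg.

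The rest of the pathway was taken from lists of 61 further genes. In pupal IFM 54 were tested; 2 were called, both higher, while 44 had a fold change above 0 and 10 below, with a median log2 fold change of 0.22 beside 0 for all genes. That is 2 of 54 called, beside 3.01% of all genes. Longer genes had higher values in this comparison, with a median of 0.19 in the longest and -0.22 in the shortest 10% of genes, and its part in the list medians was not tested. The called genes were hry (hairy), a bHLH repressor related to the E(spl) proteins, and Smr, a corepressor that joins Su(H) when Notch is off. For hry, MeHg pupal IFM had 62.5, 59.4 and 79.0 CPM and control pupal IFM 44.5, 32.9 and 39.8 CPM, groups that did not overlap (0.74 ± 0.14, adjusted p = 0.015, edgeR). Smr had 334, 276 and 318 CPM after MeHg against 241, 208 and 228 CPM in controls, also apart (0.42 ± 0.09, adjusted p = 0.031, edgeR). Unlike those of the members, the calls of hry and Smr were not tested with the length trend removed or under the other alternatives. All 7 genes of the nuclear complex list (Su(H), mam, nej, H, gro, CtBP and Smr) had values above 0, with a median of 0.25, and 1 passed the test. The ligand gene Delta had 43.2, 54.0 and 49.0 CPM in MeHg pupal IFM against 39.3, 31.1 and 38.2 CPM in control pupal IFM and was not called.

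In adult IFM, 3 of the 54 other genes tested were called, sc and edl as higher and stg as lower; 29 had a fold change above 0 and 21 below, and the median was 0.03 beside -0.01 for all genes. Over all genes 7.6% were called. The proneural gene sc, whose protein favours the neural precursor fate, had 2, 9 and 14 counts in MeHg adult IFM against 2, 0 and 0 counts in control adult IFM. The groups touched at 2 counts. The ratio of the sums, 25 against 2, was 13.2 (exact 95% interval 3.30 to 115.2, counting error only). The adjusted p of 0.045 (edgeR) is that of the fitted fold change and not of this ratio. The gene edl, an antagonist of Ets factors in flies, had 24.3, 20.7 and 25.6 CPM after MeHg against 14.9, 17.5 and 17.5 CPM in controls, which were apart (0.55 ± 0.14, adjusted p = 0.0423, edgeR). Lower was stg, the fly Cdc25 phosphatase that drives entry into mitosis, with 1.76, 1.68 and 1.502 CPM after MeHg against 3.01, 3.09 and 2.08 CPM in controls (-0.68 ± 0.16, adjusted p = 0.0306, edgeR). Its ranges were also apart. The calls of sc, edl and stg were not tested under the alternatives used for the members. In VNC edgeR and DESeq2 called 0 of 56 in pupae and in adults. Medians were -0.01 beside 0 for all genes in pupae and 0.06 beside 0.05 in adults. With edgeR, 1 in pupae and 11 in adults had an unadjusted p under 0.05. The share of all genes at that level was not counted, so whether these numbers exceed it is not known.

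**Figure D5:**
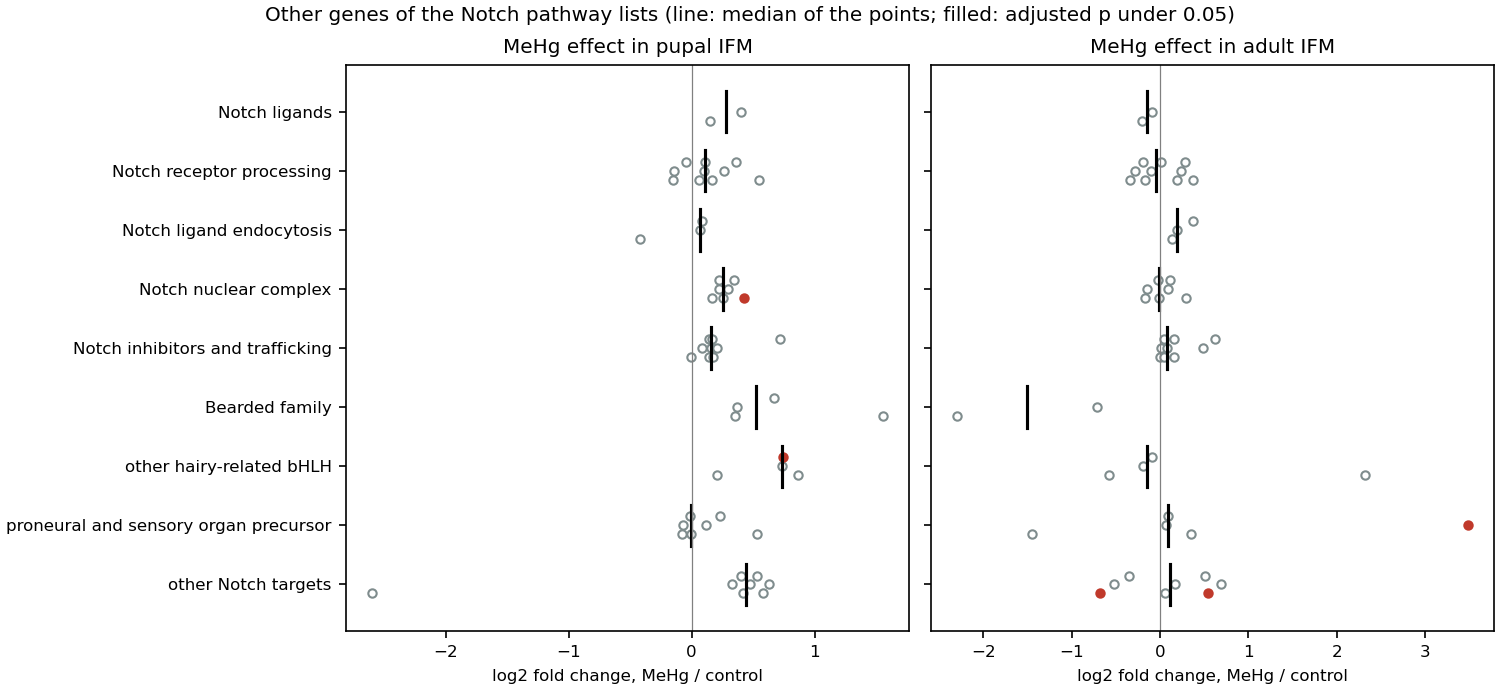
MeHg effect (log2 fold change) on the other genes of the Notch pathway lists, by list, in pupal IFM (left) and adult IFM (right). Each point is a gene, the 10 members and genes with a fitted value of exactly 0 being left out, filled where it passed an adjusted p of 0.05, and the line is the median of the points; the nuclear complex list lies above 0 in pupal IFM for all of its 7 genes.

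Between stages and tissues the upstream genes also moved. Of the 54 other genes tested in IFM, 12 were higher and 33 lower in control adults than in control pupae, with a median log2 fold change of -0.78 beside -0.04 for all genes, of which 36.7% were lower and 74.4% called in either direction. In VNC 8 of 56 were higher and 37 lower, with a median of -0.70 beside 0.05 for all genes, of which 32.6% were lower. Both ligand genes were lower in adult controls, Delta by -1.64 ± 0.12 in IFM (adjusted p = 1.74e-07, edgeR) and -3.46 ± 0.15 in VNC (adjusted p = 2.36e-09, edgeR), and Ser by -2.24 ± 0.35 in IFM (adjusted p = 0.000165, edgeR) and -4.65 ± 0.30 in VNC (adjusted p = 1.01e-07, edgeR). In control adults both were higher in IFM than in VNC, by 1.96 ± 0.14 for Delta (adjusted p = 9.45e-11, edgeR) and 2.41 ± 0.35 for Ser (adjusted p = 3.45e-06, edgeR), where N was lower. In control pupae all 10 genes of the receptor processing list, among them the metalloprotease genes Tace and kuz, were lower in IFM than in VNC, as were 34.1% of all genes. The log2 fold changes were -4.35 ± 0.19 for Tace (adjusted p = 4.2e-14, edgeR) and -2.08 ± 0.18 for kuz (adjusted p = 2.22e-09, edgeR).

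Markers of other cell types were summed in the same IFM libraries. Some of them are also in the pathway lists. These are E(spl)m6-BFM, zfh1 and Him among the muscle precursor markers, dpn and ase among the neuroblast markers, and sens among the sensory organ markers. In pupal IFM the summed level of 6 markers of adult muscle precursors was 209 to 242 CPM after MeHg and 155 to 189 CPM in controls, and that of 8 neuronal markers 720 to 852 CPM after MeHg and 626 to 715 CPM in controls, both without overlap. The 5 neuroblast markers summed to 19.25 to 25.1 CPM after MeHg and 17.8 to 19.18 CPM in controls, apart by less than 1 CPM. Sums that overlapped were those of 4 tracheal markers, 140.97 to 179 CPM after MeHg and 131 to 141.27 CPM in controls, of 6 glial markers, 149.6 to 171.2 CPM after MeHg and 144.8 to 171.1 CPM in controls, and of the 10 flight muscle markers, 59512 to 78115 CPM after MeHg and 62922 to 74711 CPM in controls. The haemocyte, tendon cell and sensory organ sums also overlapped. No defining marker of these lists was at 0. Single markers that passed the test were the haemocyte gene Hml, higher (0.87, adjusted p = 0.0383, edgeR), and the flight muscle gene fln, lower (-1.09, adjusted p = 0.0289, edgeR). Their part in the rise of neur and E(spl)m7-HLH was not tested.

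In adult IFM the flight muscle markers summed to 47532 to 59156 CPM after MeHg and 63996 to 85556 CPM in controls, and the 6 haemocyte markers to 1732 to 2485 CPM after MeHg and 2561 to 3442 CPM in controls. Both sums were lower after MeHg without overlap. So was that of 4 tendon cell markers, at 556 to 670 CPM after MeHg and 683 to 783 CPM in controls. The 5 neuroblast markers summed to 23.7 to 37.0 CPM after MeHg and 12.1 to 16.1 CPM in controls, with mira (1.69, adjusted p = 0.0163, edgeR) and insc (0.92, adjusted p = 0.0262, edgeR) higher. Of their defining genes, wor was at 0 in both groups and ase at 0 in the controls. The neuronal markers overlapped, with 199 to 253 CPM after MeHg and 222 to 357 CPM in controls. The glial, tracheal, sensory organ and adult muscle precursor sums also overlapped. Lower single markers were Act88F (-1.28, adjusted p = 0.00776, edgeR) and sls (-0.77, adjusted p = 0.0154, edgeR), both of flight muscle, and Pxn (-0.58, adjusted p = 0.0405, edgeR) of haemocytes. What part these differences have in the rise of neur, E(spl)m3-HLH and E(spl)malpha-BFM was not tested.

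Over the 8 group means, the genes with a pattern most like that of 4 members were found by Pearson's r of log2(CPM + 0.5) among 12630 other genes. For N they were inv (0.997), puf (0.996) and CG3368 (0.996), and for neur msn (0.993), dlp (0.993) and rin (0.992). E(spl)m7-HLH was most like CG14062 (0.999), Eig71Eb (0.998) and CG44090 (0.996). E(spl)mdelta-HLH was most like CCT8 (0.996), RpS5a (0.996) and CCT3 (0.994). None of these 12 genes belongs to the E(spl) complex or to the pathway lists. With 8 points dominated by stage and tissue, such values describe likeness of pattern only.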

How the data were processed

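Total RNA of 24 libraries was prepared with a stranded kit, per the labels' protocols. The authors deposited whole-number read counts per gene, 1 file per library, which equalled the series count table in 24 of 24 libraries. Per the submitters' processing notes, the tools were STAR 2.7.6a, featureCounts, Subread 2.0.1 and bcl2fastq 2.19.0, with dm6 as the build; the strand setting of counting is not given in the sources used here. Names of 17504 genes came from a RefSeq table of Release 6, and exonic lengths of 99.6% of genes from an Ensembl annotation of that release. No pair among 24 pairs of replicates was identical, with a chi-square between 12.87 and 213.91 times its degrees of freedom.

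Tests ran in edgeR 4.0.16 (R 4.3.3), by quasi-likelihood with robust dispersion, after filterByExpr and TMM scaling. P-values were adjusted by Benjamini-Hochberg over each fit's genes, with a threshold of 0.05. MeHg and stage effects used a tissue's 12 libraries (8 residual degrees of freedom; 11347 genes in IFM, 11870 in VNC), and tissue effects and MeHg by tissue differences all 24 (16 residual degrees of freedom; 12631 genes). CPM are scaled over all 24 libraries. Standard errors are the log2 fold change over the root of F. Ratios of few counts have exact 95% binomial intervals that cover counting error only. Against 0 counts a floor of 3 counts per group was used, and these ratios have no interval. Medians beside a list are over its tested genes.

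The members, gene lists and named genes were chosen with earlier results of these data known. Named were the 10 members, up to 4 called genes per pathway list and comparison, of which the main ones are printed, and the 3 genes most like N, neur, E(spl)m7-HLH and E(spl)mdelta-HLH. Alternatives were DESeq2 1.42.0, other scaling, no filter, 6 or 24 libraries, a replicate block, the title tag, removal of the trend with exonic length and leaving out each library. They were run for the 10 members, and for the other pathway genes only as DESeq2 in VNC. The test was tried on simulated counts.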

Additional observations from a re-analysis of the deposited data

Results flagged for a closer look

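For neur in adults, the MeHg effect differed between the tissues by 0.58 on the log2 scale (IFM minus VNC, SE 0.16, adjusted p = 0.0488, edgeR). The call was lost when any adult IFM library was left out (adjusted p 0.0549 to 0.139, edgeR). It was also lost without the low-count filter (adjusted p = 0.0965, edgeR) and with the title tag as a term (adjusted p = 0.072, edgeR). The gene had 19.5, 19.5 and 19.7 CPM in MeHg adult IFM against 12.0, 12.6 and 12.0 CPM in control adult IFM, and 23.8, 23.0 and 23.2 CPM in MeHg adult VNC against 22.5, 21.3 and 21.4 CPM in control adult VNC.

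For E(spl)malpha-BFM in adults the difference of IFM minus VNC was 5.61 (SE 1.12, adjusted p = 0.0113, edgeR), and with the replicate block 5.59 (adjusted p = 0.0583). It rested on 8, 54 and 28 counts in MeHg adult IFM against 0, 0 and 2 counts in control adult IFM, and on 5, 1 and 1 counts in MeHg adult VNC against 2, 3 and 4 counts in control adult VNC.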

How the results depend on the processing

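Of 1502 values of single members recomputed under the alternatives, 1 called value reversed, the difference of N between control pupal IFM and control pupal VNC (0.81 with the length trend removed). Of 414 alternatives to called values 367 were still called, and of 1088 alternatives to uncalled values 21 were called; 55 uncalled values changed sign. Stage calls held in each alternative run for them. The 2 members called for MeHg in pupal IFM became 1 with the length trend removed, 1 without the filter, 1 with the 6 libraries alone, 0 with the replicate block, 0 with the title tag as a term, and 0 to 2 when single libraries were left out. The 3 in adult IFM became 1 with the 6 libraries alone, 1 with the replicate block and 1 with the title tag. For the MeHg by stage difference in IFM, 0 became 2 with all 24 libraries, 1 with DESeq2 and 0 to 1 when single libraries were left out. For the MeHg by tissue difference, the 2 in adults became 1 without the filter, 1 with the replicate block, 1 with the title tag and 1 to 2 when single libraries were left out, and the 0 in pupae became 2 with DESeq2. The tissue counts, 5 in pupae and 3 in adults, ran from 3 to 5 in both stages when single libraries were left out. Deviations of same-numbered MeHg and control libraries correlated at r -0.29, 0.05 and -0.07 in pupal IFM, -0.11, -0.05 and -0.02 in pupal VNC, -0.27 and 0.19 in adult IFM, and 0.35 and 0.34 in adult VNC, where there are 2 pairs. Those of IFM and VNC libraries were 0.20, 0.12 and 0.32 in MeHg pupae, each library being most like its own number, a hint from the data, but 0.07, 0.19 and -0.20 in control pupae, and 0.24, 0.08 and 0.11 in MeHg adults and -0.29, -0.17 and 0.18 in control adults. As most sets held values under 0.1, the numbers were not taken as pairs. The title tag could not be a term for stage effects, since it differs between the stages, and the fit of 6 libraries does not apply to differences of effects. The cause of these changes was not tested. Values under 1 CPM rest on few counts. E(spl)m5-HLH was too low to test, as were E(spl)m8-HLH and E(spl)mgamma-HLH for MeHg within IFM.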
